A study of Mus musculus with 2 samples.

Results

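Haemato-endothelial progenitor nuclei were picked out of mouse embryos at gastrulation by the RNA of 8 genes of early blood and vessel formation: Tal1, Fli1, Etv2, Tek, Lmo2, Rhoj, Hapln1 and Kdr. Nuclei were eligible with 3000 to 30000 RNA molecules (unique molecular identifiers, UMIs) and at least 2000 counts in accessibility peaks. Each was scored by the mean over the 8 genes of the natural log of 1 plus UMIs per 10000. The 250 nuclei with the highest score were taken, out of 11605 eligible barcodes (2.15%) and 15341 deposited barcodes in all. They are called progenitor nuclei below, and the 11355 other eligible barcodes are called the other nuclei.

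The study profiled pooled whole embryos staged at E7.0 (embryonic day 7.0), dissociated with the enzyme TrypLE and taken through nuclei isolation into a 10x Genomics multiome, an assay that reads nuclear RNA and transposase-accessible chromatin under 1 barcode. The groups were E7.0 nuclear RNA and E7.0 accessible chromatin, 1 library each, and all 15341 barcodes carried both. The number of embryos was not given in the sources used here, and no barcode could be tied to an embryo. Several label fields disagreed with this: they named small intestine and distal colon as tissue, goblet cells as cell type and RedMUC298trTg as strain. Of 8 genes of goblet cells and intestine, 5 had no UMI in the progenitor nuclei, among them Muc2 and Tff3, and the list as a whole had 20 UMIs, or 6.79 CPM (UMIs per 1000000 UMIs) against 30.5 in the other nuclei. No treatment was named. With 1 library per assay there was no replicate, so no difference below had a test: intervals are exact 95% intervals for counting error only, and nuclei are not replicates.

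Haemato-endothelial progenitors are mesoderm cells that leave the primitive streak during gastrulation and give rise to the first blood cells and to endothelium, the lining of vessels. In the mouse they first gather in the extraembryonic mesoderm of the future yolk sac, where blood islands form. The ETS factor Etv2 starts this programme in mesoderm that carries the VEGF receptor Kdr, and Tal1 with its partner Lmo2 commits cells towards blood and vessel fates.

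The RNA and the peaks of the progenitor nuclei were about as deep as those of the rest. Their median was 10886 UMIs, 4311 genes and 18163 peak counts, against 11360 UMIs, 4414 genes and 19512 peak counts in the other nuclei. Together they held 2945715 UMIs and 2636145 estimated accessibility fragments, and the other nuclei 141355368 UMIs and 122757938 fragments. Scrublet, which flags barcodes that look like mixtures of nuclei, called 12 of the 250 (4.80%) and 6.26% of the others. All 12 ranked between 126 and 250 by score.

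The score had no gap at the limit. The last nucleus taken scored 0.587 and the first left out 0.585, and 41 nuclei lay within 0.1 above the limit and 43 within 0.1 below it. The 250th nucleus had 4 UMIs of Tal1, 7 of Etv2 and 6 of Kdr and none of the other markers. The first nucleus outside had 2 of Tal1, 2 of Etv2, 2 of Rhoj, 2 of Hapln1 and 5 of Kdr. The top nucleus, by contrast, had all 8 genes, with between 7 UMIs of Lmo2 and 27 of Fli1. The median score was 0.999 in the progenitor nuclei and 0 in the others, of which 7854 (69.2%) had no UMI of any marker. At least 5 of the 8 genes were present in 213 of the 250 nuclei and in 11 others.

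The levels of the 8 genes are given next as a description, because they chose the nuclei. Tal1, a basic helix-loop-helix factor needed for all blood formation, lies on chromosome 4 with its first start at 115056426. It stood at 195 CPM in the progenitor nuclei and 1.19 in the others, and was seen in 80.4% of the former (interval 74.9 to 85.1) and 1.24% of the latter. Lmo2, the LIM-domain bridge that joins Tal1 to GATA factors, starts on chromosome 2 at 103957995 or downstream. It stood at 213 against 2.98 CPM and was seen in 82.0% against 3.43% of nuclei. Both blood factors were thus present in most progenitor nuclei and in few others.

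The ETS factors differed from each other in how far their RNA spread. Fli1, an ETS factor of blood and endothelium (chromosome 9, start 32541595), stood at 404 against 2.002 CPM and was seen in 74.8% against 1.89% of nuclei. Etv2 (chromosome 7, start 30635852) stood at 307 against 12.6 CPM and was seen in 78.4% against 10.7%. Etv2 RNA reached outside the progenitor nuclei further than Fli1 RNA did: the 250 other nuclei with the highest score over 12 extraembryonic mesoderm genes (called extraembryonic mesoderm nuclei below) had 64.9 CPM of Etv2 and 13.7 of Fli1.

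Among the surface and matrix genes, Kdr, the VEGF receptor 2 (chromosome 5, start 75978458), was the most widespread. It stood at 564 against 33.2 CPM and was seen in 249 of the 250 progenitor nuclei and in 16.9% of the others. Tek, the angiopoietin receptor Tie2 (chromosome 4, start 94739289), stood at 165 against 1.45 CPM and was seen in 56.4% against 1.57% of nuclei. Hapln1, a link protein that ties proteoglycans to hyaluronan (chromosome 13, start 89539796), stood at 167 against 0.693 CPM and was seen in 51.2% against 0.634%. Rhoj, a small GTPase of endothelial cells (chromosome 12, start 75308322), stood at 215 against 2.94 CPM and was seen in 78.0% against 3.003%.

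Shares of nuclei with a UMI depend on depth, so they were also read after thinning each nucleus to 3000 UMIs, which left out none. The share was then 40.4% for Tal1, 49.6% for Etv2, 32.0% for Tek and 78.4% for Kdr in the progenitor nuclei. For comparison, 250 of the other nuclei were chosen by 8 genes of extraembryonic ectoderm, a trophoblast tissue. Their thinned share was 0 for Tal1, Fli1 and Hapln1, 0.400% for Etv2, Tek and Lmo2, 1.2% for Rhoj and 4.4% for Kdr. Those nuclei had a median of 14453 UMIs, deeper than the progenitor nuclei. The shares in progenitor nuclei are a description, since these genes chose the nuclei. The low shares in the extraembryonic ectoderm nuclei are likewise a description, since nuclei with the highest marker scores had been left out beforehand.

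The choice of nuclei changed little when any single gene was left out. When each gene was left out in turn and 250 nuclei chosen by the other 7, between 236 and 246 of the same nuclei were taken. The gene left out was still higher in the nuclei so chosen, by 172-fold for Fli1 (interval 152 to 195), 158-fold for Hapln1, 136-fold for Tal1 and 104-fold for Tek. The ratios were 65.8 for Lmo2, 62.1 for Rhoj, 19.4 for Etv2 and 16.0 for Kdr (15.1 to 16.9). Etv2 and Kdr, the 2 genes with the smallest ratios, were also those with the highest levels in the other nuclei.

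The RefSeq promoters of Tal1, Etv2 and Tek (GRCm38.p6) are shown because the accessibility data described below bear on each. They are the 250 bases before a start, 5′ to 3′ on the gene's strand. Capitals mark a GATA motif (AGATAA or TGATAA on either strand) or an ETS motif (AGGAAG or CGGAAG on either strand). Such a match is a run of letters, not a shown binding site. Tal1 is on the plus strand at chr4:115056176-115056425, Etv2 on the minus strand at chr7:30635853-30636102, and Tek on the plus strand at chr4:94739039-94739288.
Tal1: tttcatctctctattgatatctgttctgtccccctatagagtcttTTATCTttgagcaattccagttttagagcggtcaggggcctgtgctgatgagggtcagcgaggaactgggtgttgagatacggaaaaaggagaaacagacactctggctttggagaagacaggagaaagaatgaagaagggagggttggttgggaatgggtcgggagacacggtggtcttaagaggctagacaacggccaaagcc
Etv2: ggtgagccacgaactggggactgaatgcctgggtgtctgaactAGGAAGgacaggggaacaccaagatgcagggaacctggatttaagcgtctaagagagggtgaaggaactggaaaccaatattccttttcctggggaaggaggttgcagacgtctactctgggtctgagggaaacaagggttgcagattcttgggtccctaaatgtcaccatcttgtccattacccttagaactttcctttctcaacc
Tek: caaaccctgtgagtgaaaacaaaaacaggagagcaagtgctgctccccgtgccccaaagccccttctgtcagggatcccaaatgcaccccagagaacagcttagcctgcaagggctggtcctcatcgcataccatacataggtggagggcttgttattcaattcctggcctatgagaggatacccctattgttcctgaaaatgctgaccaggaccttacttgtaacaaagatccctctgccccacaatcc
The Tal1 stretch held 1 GATA match, which began 205 bases before the start. The Etv2 stretch held 1 ETS match, 207 bases before the start. Tek had no match in the printed stretch, and its GATA match began at base 37 after the start.

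Ranked by score, the 8 genes did not decline alike. Fli1 stood at 843 CPM in ranks 1 to 50, 518 in ranks 51 to 125 and 160 in ranks 126 to 250, and then at 27.2 in the 250 nuclei just outside the limit. Tek went from 334 to 215 to 67.7 and to 8.61 CPM over the same 4 bands, and Tal1 from 356 to 206 to 123 and to 18.9. Etv2 did not follow them: it stood at 335, 212 and 351 CPM within the limit and still at 188 in the band just outside. Kdr fell from band to band, but by less than Fli1, Tek and Tal1. It stood at 743, 613 and 463 CPM within the limit, 403 in the band just outside and 274 in the 500 nuclei after that. The bands are ranks of these genes' own score, so the levels describe how the score was made up along them.

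**Figure D1:**
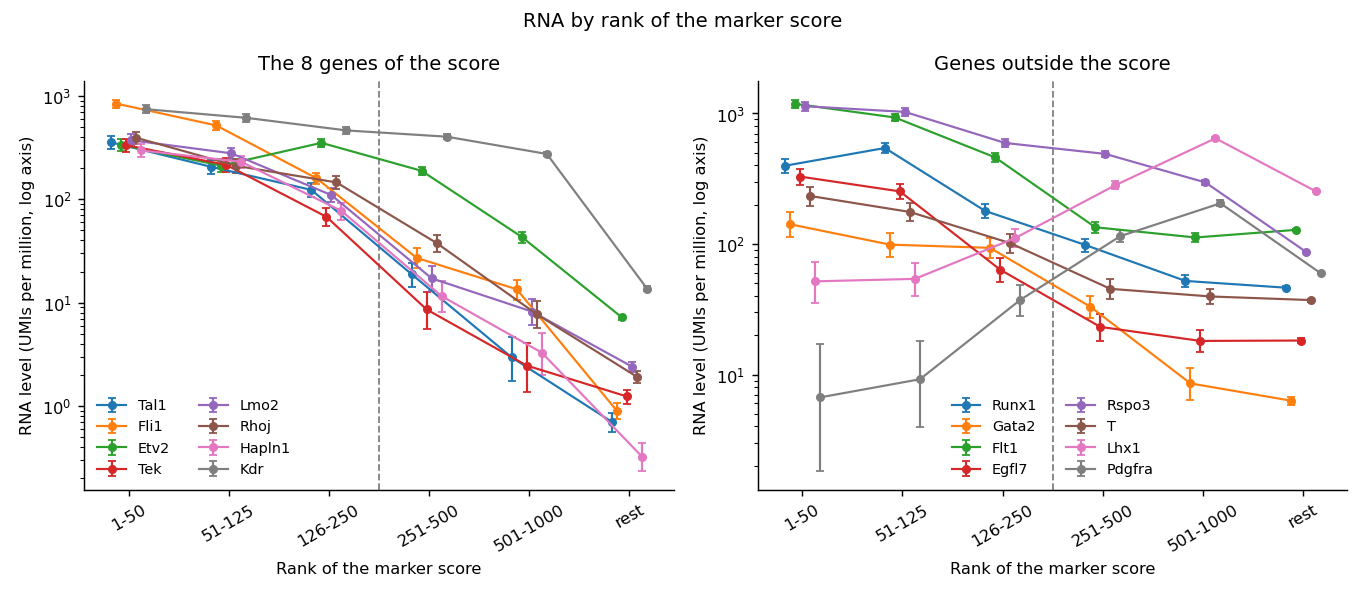
RNA level in CPM (log axis) by rank of the marker score, for the 8 genes of the score on the left and 8 genes outside it on the right, with 95% counting intervals as bars and the limit after rank 250 as a dashed line. Tek goes from 334 in ranks 1 to 50 to 8.61 just outside the limit while Kdr only goes from 743 to 403, and Lhx1 and Pdgfra run the other way, with their highest levels in the fifth band, up to rank 1000.

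All genes were then compared between progenitor and other nuclei. Of 15081 genes with at least 1 CPM, 246 were called higher (1.63% of those tested, with the 8 markers among them) and 677 lower (4.49%), where a call needed a ratio of 4 or more in either direction with an interval that left out 1. The RNA of these same nuclei had chosen them, so the calls describe the set and nothing is read from their share. When the 400 highest scores were taken, 16 of 31 lower calls chosen for naming came within the 4-fold limit, and 2 of 50 higher ones (T and Notch1). The 50 include the 8 markers and the genes with the highest ratios, so these counts do not compare lower with higher calls in general.

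Over the blood and endothelial lists together, 40 genes were tested, 19 were called higher (17 of 39 with the minimum of 1 CPM set on the other nuclei alone) and 2 lower, and the median log2 ratio was 1.83, where that of all tested genes was -0.10. Blood transcription factors were the first list. Of 15 listed, 9 passed the level filter, 4 were called higher and 1 lower, and the median log2 ratio was 0.44. Gata2, a GATA factor of blood stem and progenitor cells, stood at 105 against 6.98 CPM, a ratio of 15.02 (13.2 to 17.1). Runx1, the factor through which endothelium yields definitive blood cells, stood at 331 against 47.7 CPM, a ratio of 6.95 (6.49 to 7.44). Ikzf1, a zinc-finger factor of lymphoid and other blood cells, stood at 46.2 against 2.43 CPM (19.0, 15.5 to 23.3), and Cbfa2t3, a corepressor in Tal1 complexes, at 25.8 against 3.57 (7.24, 5.61 to 9.23). These 4 are regulators of early or multipotent blood progenitors, but Mecom, a stem cell factor of the same list, was called lower. Runx1 was also at 104.5 CPM in the extraembryonic mesoderm nuclei, and Cbfa2t3 at 17.7 CPM in the extraembryonic ectoderm nuclei. In these 2 sets Gata2 was at 17.2 and 6.76 CPM and Ikzf1 at 0.701 and 0.520.

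Most other blood factors of the list had few UMIs. Gata1, the master factor of red cells, had 8 UMIs in the progenitor nuclei, or 2.72 CPM against 3.32 in the others (ratio 0.819, 0.351 to 1.63). Klf1, which drives globin genes, had no UMI there. Myb, needed for definitive but not primitive blood, was at 6.45 against 15.4 CPM, and Mecom, a stem cell zinc-finger factor, was called lower at 13.9 against 59.1 CPM, 4.24-fold lower (3.13 to 5.92), a call lost with 400 nuclei (ratio 0.308) and with the score on thinned UMIs (0.271). Others had few UMIs but a higher level than in the rest: Gfi1b had 6 UMIs (2.04 against 0.0920 CPM, ratio 22.2, 6.90 to 62.5), Lyl1, a relative of Tal1, 7 (9.60, 3.60 to 21.9) and Spi1, the myeloid factor PU.1, 6 (8.00, 2.75 to 19.2). All 3 were under the level filter and so not called. The cofactors Zfpm1 and Ldb1 were near the level of the rest, with ratios of 1.36 and 1.23.

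Red cell genes were likewise at low levels or near those of the rest. Of 15 listed, 6 were tested and 1 was called higher: Itga2b, the integrin CD41 that marks the first committed blood cells, at 18.0 against 0.948 CPM (19.0, 13.5 to 26.3), a gene that passed the level filter only through the progenitor nuclei. The embryonic globins Hbb-bh1, Hbb-y and Hba-x had no UMI in the progenitor nuclei or in the others, where 3 UMIs in the former would have been 1.02 CPM. Tfrc, the transferrin receptor, was at 138 against 126 CPM, and Kit, the stem cell factor receptor, at 32.9 against 20.1. Of the adult globins, Hbb-bt had 1 UMI in the progenitor nuclei and the other 3 had none. Embryonic globin RNA was thus not detectable at this depth.

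Endothelial transcription factors were mixed. Of 14 listed, 10 were tested, 3 were called higher and 1 lower, with a median log2 ratio of 0.89. Elk3, an ETS factor of vessels, stood at 97.4 against 8.99 CPM (10.8, 9.5 to 12.3), and Sox7, an SRY-related factor of the first endothelium, at 49.6 against 4.51 (11.0, 9.12 to 13.2). Ets1 was at 37.3 against 8.43 CPM (4.43, 3.61 to 5.39). Hhex, a homeobox factor of blood, endothelium and anterior endoderm, had a ratio of 3.44, below the limit. Sox17, which also marks endoderm, was at 22.1 against 34.1 CPM. The gene called lower was Foxc1, with 1 UMI in the progenitor nuclei and 450 in the others (ratio 0.107, 0.00269 to 0.597), and with 400 nuclei its ratio was 0.531. Sox18 and Erg, both endothelial factors, were under the filter on level over all nuclei and so not called, at 35 against 19 UMIs for Sox18 (88.4, 49.2 to 163.6) and 24 against 37 for Erg (31.1, 17.8 to 53.4). More Sox18 UMIs thus came from the 250 progenitor nuclei than from all 11355 others.

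The tested endothelial surface and secreted genes were mostly higher. Of 24 listed, 15 were tested and 11 were called higher and none lower, with a median log2 ratio of 2.65. With the minimum of 1 CPM set on the other nuclei alone, 10 of 14 were called higher, where 1.53% of all genes were. The receptors for VEGF and its relatives stood high: Flt1, the VEGF receptor 1, at 748 against 128 CPM (5.85, 5.598 to 6.12), and Flt4, the VEGF-C receptor, at 45.8 against 1.73 (26.4, 21.3 to 32.8). Their co-receptors Nrp1 and Nrp2 were at 357 against 56.7 CPM (6.29) and 444 against 57.6 (7.71). Egfl7, a protein secreted by endothelium, was at 174 against 18.3 CPM (9.47), and Eng, the TGF-beta co-receptor endoglin, at 71.6 against 5.69 (12.6). In the extraembryonic ectoderm nuclei Nrp2 was at 177, Egfl7 at 33.0 and Eng at 31.2 CPM, while Flt1, Flt4 and Nrp1 were at 16.9, 1.82 and 1.82. Aplnr, the apelin receptor, had a ratio of 5.82, though it was at 58.8 CPM in 250 nuclei chosen by 10 embryonic mesoderm genes and at 56.01 in the progenitor nuclei. Plxnd1, a semaphorin receptor, had a ratio of 10.8 and the junction protein Esam one of 17.8. Esam, at 0.877 CPM in the others, passed the level filter only through the progenitor nuclei.

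Genes of assembled vessels had few UMIs. Cdh5, the adhesion protein VE-cadherin, was called higher on 26 UMIs in 19 progenitor nuclei, at 8.83 against 1.15 CPM (7.70, 4.88 to 11.7), and Plvap, of endothelial pores, on 32 UMIs (5.31, 3.57 to 7.67). Pecam1, the junction protein CD31, was at 11.9 against 4.49 CPM, a ratio of 2.65 that was not called. Icam2, Tie1, Cldn5 and Cd34 were under the level filter, on 9, 4, 6 and 9 UMIs, with ratios of 43.2 (15.5 to 118), 27.4 (5.89 to 107.9), 13.1 (4.34 to 33.3) and 3.999 (1.78 to 7.88). Emcn and Clec14a had no UMI in the progenitor nuclei. Per nucleus, the 24 genes together made up between 3.04 and 58.6 of every 10000 UMIs in the progenitor nuclei, with a median of 18.9, against a median of 1.91 in the others. The extraembryonic mesoderm nuclei had a median of 5.997, so they lay between.

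**Figure D2:**
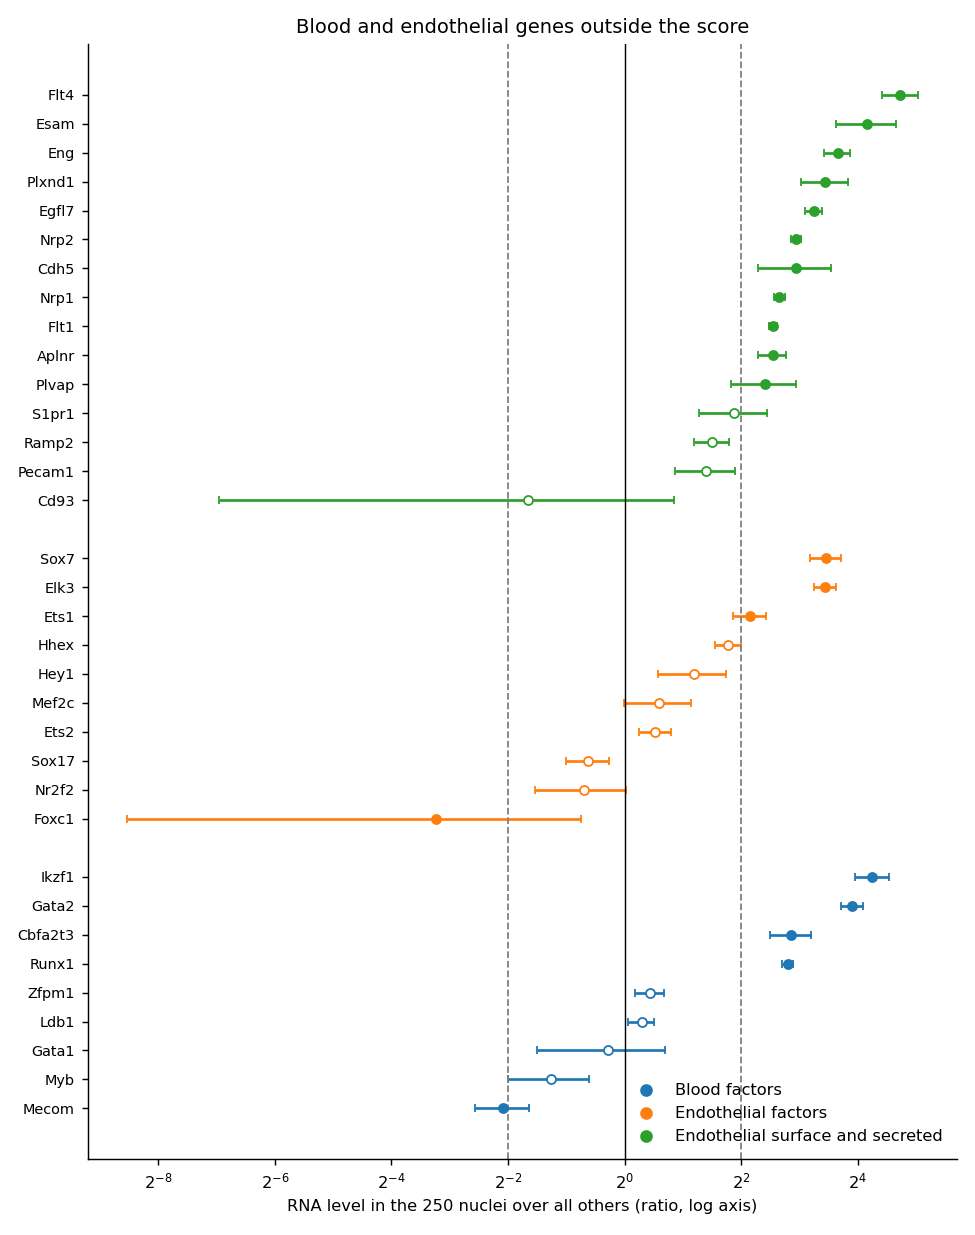
Ratio of RNA level between the 250 progenitor nuclei and all other nuclei (log axis) for each tested gene of 3 lists, with 95% counting intervals; filled points were called, open points were not, and the dashed lines mark the 4-fold limits. All 11 called surface and secreted genes lie to the right, from Plvap at 5.31 to Flt4 at 26.4, while blood and endothelial factors lie on both sides, from Foxc1 at 0.107 to Ikzf1 at 19.0.

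Growth factor genes of the VEGF, angiopoietin and PDGF families went both ways. Of 11 tested, 5 had a log2 ratio above 0, and the median was -0.05. The list summed to 339.8 against 259.3 CPM, a ratio of 1.31 (1.229 to 1.395), and 1 gene was called higher. That gene was Pdgfb, the endothelial signal that recruits mural cells, at 49.9 against 4.28 CPM (11.7, 9.67 to 14.0). The ligand Vegfc was at 55.0 against 15.6 CPM (3.53, 2.99 to 4.15), just under the limit, whereas Vegfa was at 22.4 against 23.4. Kitl, the stem cell factor, was at 101 against 65.0 CPM. The PDGF receptor Pdgfra, a mesoderm marker, was at 22.7 against 67.2 CPM. Receptors for VEGF thus stood higher in these nuclei and the ligand Vegfa did not.

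Among 18 genes of BMP signalling, all tested, 1 was called higher and 2 lower. Bmp2, a ligand, stood at 207 against 30.8 CPM (6.72, 6.16 to 7.31), while Bmp4, the ligand that induces ventral mesoderm, was at 35.6 against 35.7 CPM. The inhibitory Smad6 was at 174 against 66.6 CPM (2.61), and the target Id3 and the receptor Bmpr1a had ratios of 1.34 and 0.976. Chrd, a secreted BMP antagonist, and Smad9, a receptor-activated SMAD, were called lower on 4 UMIs each, with ratios of 0.108 (0.0295 to 0.278) and 0.145 (0.0394 to 0.372). The call of Smad9 was lost with 400 nuclei (0.336) and with thinned UMIs (0.254).

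Of 15 Notch pathway genes, 13 were tested, with 1 called higher and 1 lower. The receptor Notch1 stood at 77.1 against 16.1 CPM (4.80, 4.17 to 5.502, and 3.83 with 400 nuclei) and Notch2 at 179 against 91.4 (1.96). The ligand Dll1 was called lower at 1.70 against 15.03 CPM (0.113, 0.0366 to 0.264, and 0.265 with 400 nuclei, which ends the call), and Dll4, the arterial ligand, had 6 UMIs. The target Hes1 had a ratio of 1.44 and the nuclear effector Rbpj 1.06. None of 8 tested hedgehog genes was called, and the receptor Ptch1, the transducer Smo and the effector Gli3 had ratios of 1.27, 1.27 and 1.28.

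Hyaluronan matrix genes were of interest because Hapln1 was a marker. Of 15 listed, 10 were tested and 1 was called higher, the proteoglycan Vcan, whose link to hyaluronan Hapln1 stabilises, at 328 against 56.0 CPM (5.86, 5.47 to 6.26). Has2, the main hyaluronan synthase of the embryo, was at 106 against 39.2 CPM (2.70, 2.40 to 3.03). The 2 called lower were the hyaluronan-degrading Cemip with 2 UMIs (0.0852, 0.0103 to 0.309) and the synthase Has3 with 1 UMI (0.131, 0.00330 to 0.733), whose call was lost with 400 nuclei (0.487) and with thinned UMIs (0.262). Vcan RNA was also at 245 CPM in the extraembryonic mesoderm nuclei and at 250.1 in 250 nuclei chosen likewise by 10 embryonic mesoderm genes (embryonic mesoderm nuclei), so its high level extended to other mesoderm.

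Few mesoderm and streak genes were called. Of 9 tested embryonic mesoderm genes, 1 was called higher and 2 lower, where 1.63% and 4.49% of all tested genes were. Rspo3, a Wnt agonist, stood at 833 against 105 CPM (7.93, 7.59 to 8.27), and at 376 CPM in the extraembryonic mesoderm nuclei. Lefty2, a Nodal antagonist, was lower at 5.77 against 27.7 CPM (4.80-fold), and Mesp2, a segmentation factor, on 3 UMIs (ratio 0.182, 0.0374 to 0.533). With 400 nuclei neither kept its call, at ratios of 0.556 and 0.527. Mesp1, a factor of nascent mesoderm, was at 43.1 against 77.4 CPM and the homeobox gene Lhx1 at 82.2 against 271, neither called.

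Of 10 primitive streak genes, 1 was called higher and 1 lower. T, the T-box factor Brachyury, stood at 150.4 against 37.5 CPM, a ratio of 4.01 (3.64 to 4.42, and 3.07 with 400 nuclei) at the limit, and Nodal, the signal that maintains the streak, was 4.02-fold lower (2.60 to 6.59), also at the limit and within it under 4 alternatives (ratios up to 0.303). Eomes, another T-box factor, was at 92.0 against 143.8 CPM and Mixl1 at 39.7 against 39.3. Of 9 tested extraembryonic mesoderm genes, Pmp22 was called higher, at 53.6 against 6.95 CPM (7.71, 6.48 to 9.13). The T-box factor Tbx20 was at 87.3 against 25.9 CPM (3.37) and the chromatin regulator Prdm6 at 726 against 296 (2.45).

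Set beside the 250 extraembryonic mesoderm nuclei, most vessel genes stood higher in the progenitor nuclei, while more mesoderm and streak genes stood lower than higher. Of 22 endothelial surface genes with a UMI, 17 had an interval wholly above 1 and 1 wholly below, of 14 endothelial factors 7 and 2, and of 15 blood factors 6 and none. Over all 20241 genes with a UMI there, 10.2% had an interval wholly above 1 and 9.99% wholly below, and of 15034 with at least 1 CPM 13.3% and 13.0%. Of 10 embryonic mesoderm genes, 1 was higher in the progenitor nuclei (Rspo3) and 4 in the extraembryonic mesoderm nuclei, and of 10 streak genes 1 (T, at 150.4 against 31.2 CPM) and 5. Cdh11, a mesenchymal cadherin that did not choose those nuclei, was at 861 CPM there against 215 in the progenitor nuclei. Gata2 was at 17.2 CPM there against 105, Sox7 at 2.10 against 49.6, Flt4 at 3.51 against 45.8 and Eng at 10.2 against 71.6. Nrp1, Ets1 and Mef2c ran the other way, with Nrp1 at 411 CPM in the extraembryonic mesoderm nuclei against 357 and Ets1 at 58.2 against 37.3.

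Some of these genes were graded across the limit of the score. Pdgfra stood at 6.68, 9.20 and 37.2 CPM in ranks 1 to 50, 51 to 125 and 126 to 250, and then at 115 and 205 in the 2 bands outside the limit, up to rank 500 and up to rank 1000. Lhx1 went from 51.7 and 54.1 to 111, 282 and 645 CPM over the same bands, and Cdh11 from 130.2 to 636. Flt1 went from 1187 to 932, 461, 134 and 112 CPM and Egfl7 from 329 to 253, 63.6, 23.2 and 18.1. These 3 mesoderm genes were thus at higher levels towards lower scores, within the 250 nuclei and beyond them up to rank 1000. After rank 1000 Pdgfra and Lhx1 were lower again, and over all other nuclei Pdgfra stood at 67.2 CPM. Median depth stayed between 10653 and 11374 UMIs in all bands. Doublet calls were 0 in ranks 1 to 125, 12 (9.60%) in ranks 126 to 250 and 29 (11.6%) in the band just outside, and their part in this gradient was not tested.

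The lists of epiblast, endoderm, trophoblast and germ cell genes each summed to less RNA than in the other nuclei, with a ratio of 0.231 for visceral endoderm. Per nucleus, the median for visceral endoderm genes was closer, at 5.73 against 7.42 of every 10000 UMIs. For epiblast genes it was 5.91 against 20.7, and for extraembryonic ectoderm genes 2.38 against 2.98. No gene of the 10 epiblast or 10 visceral endoderm genes was called higher, and 4 of each were called lower: Sox2, Fgf5, Otx2 and Cdh1 of the epiblast, and Cubn, Hnf4a, Afp and Apob of the visceral endoderm, the layer that covers the embryo and makes serum proteins. Cdh1, the epithelial cadherin, was at 49.9 against 259 CPM, 5.19-fold lower (4.42 to 6.15), and Cubn, an uptake receptor, at 179 against 1471, 8.21-fold lower (7.54 to 8.96). The ratio of Cubn was 0.122 with doublet calls and 0.0614 without them. With 400 nuclei Fgf5, Otx2, Hnf4a, Afp and Apob came within the limit, at ratios between 0.274 and 0.330. Cubn was at 76.8 and 86.3 CPM in the first bands and at 276 in ranks 126 to 250, the band that held all 12 doublet calls. Of 8 extraembryonic ectoderm genes, Tfap2c, Duox2 and Wnt7b were called lower and none higher. Tfap2c was also 1 of 3 tested germ cell genes, of which none was called higher. Of 5 tested genes of the ectoplacental cone and giant cells, Ascl2 was called lower, and of 3 tested goblet and intestine genes Vil1, which visceral endoderm also expresses, was called lower. Ascl2 came within the limit under 5 alternatives, at ratios between 0.255 and 0.362, and Wnt7b under 4, between 0.253 and 0.320. Vil1 did with 400 nuclei (0.272), and Tfap2c (0.347) and the epiblast gene Sox2 with wider limits on depth. Parietal endoderm genes, mostly of basement membrane, differed least: none of 8 was called, and they summed to 625 against 739 CPM (0.847, 0.808 to 0.886). Their median per nucleus was higher in the progenitor nuclei, at 5.48 against 3.63 of every 10000 UMIs.

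Maternal vessels could also carry blood and endothelial RNA, so their markers were read separately. Of 8 adult vessel genes, Selp, Sele, Aqp1 and Fabp4 had no UMI in the progenitor nuclei, and Ly6a had 2, Ly6c1 3 and Ackr1 5. Vwf, the clotting factor of endothelium, was the exception at 67 UMIs, 22.7 against 2.61 CPM (8.71, 6.61 to 11.3). The list summed to 26.1 CPM in the progenitor nuclei and 4.34 in the others (6.03, 4.69 to 7.65), and 19.6% against 4.20% of nuclei had a UMI of it. The part of maternal vessels in the results was not tested. The 10 immune and platelet genes summed to 11.2 against 15.7 CPM, with Ptprc, Lyz2 and C1qa at 0, and 6 genes of the decidua to 13.9 against 23.4. Cell cycle genes did not set the nuclei apart, with summed ratios of 1.01 for 12 S phase genes and 1.02 for 12 genes of G2 and mitosis and none called.

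Outside the fixed lists, genes called higher were named by rank of their ratio among those with at least 100 UMIs in the progenitor nuclei and a UMI in 10% of them, and genes called lower among those with at least 100 CPM in the others. Shank3, a scaffold protein best known from synapses, stood at 298 against 5.68 CPM (52.5, 47.7 to 57.9) and was seen in 79.6% of progenitor nuclei and 5.74% of the others. That is about the share of nuclei with Tal1. St8sia1, a ganglioside sialyltransferase, stood at 34.0 against 0.488 CPM (69.6, 50.7 to 95.9), and passed the level filter only through the progenitor nuclei. Several others act in vessels or in the matrix: Ptprb, the endothelial phosphatase VE-PTP that acts on Tek, had a ratio of 25.4, Rasip1, an effector of endothelial lumen formation, 15.2, and Edil3, an integrin-binding matrix protein, 33.6. The potassium channel gene Kcnq5 was at 537 against 38.8 CPM (13.8).

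Ratios between 20.7 and 41.2 were seen for Gas7 (133 against 3.23 CPM), the metalloprotease Adam12 (34.6 against 0.870, which also passed only through the progenitor nuclei), the glycosyltransferase Galnt18, Exoc3l, Plcl1, Ripor2, Cped1 and Nrip3 (52.6 against 2.55). The 8 genes with the lowest ratios were between 6.21-fold and 11.8-fold lower. Lrp2, the endocytic partner of Cubn, was at 31.2 against 250.6 CPM (8.03-fold) and the Polycomb-related Sfmbt2 at 47.5 against 442 (9.31-fold). The others were Gramd1b, Kcnj3, Arid5b, Ldb2, Magi2 and the unnamed transcript Gm13270, whose 28 UMIs lay in 5 progenitor nuclei and whose ratio was 0.00685 without doublet calls, against 0.0848 with them. The call of Ldb2 was lost with 400 nuclei.

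Chromatin accessibility was not used by the score, so it gave a separate measure of the same nuclei, still from 1 library. Values are estimated fragments per 1000000 fragments in peaks (FPM). Peaks overlapping the span from a gene's first to its last start in the files, with 1000 bp to either side, were taken as promoter peaks, and those within 50000 bp at no promoter as distal. For genes with distant starts this span holds peaks far from any start. Among the markers it was 12249 bp long for Lmo2, 3082 for Tal1, 229 for Tek and a single start for the other 5. Of 158455 peaks with at least 1 FPM, 3262 were at least 4-fold more accessible in the progenitor nuclei (2.06% of those tested) and 10156 at least 4-fold less (6.41%), by the same rule as for RNA. Peaks at the 8 marker genes were called higher more often, 2 of 11 tested at promoters and 14 of 74 distal, and 3 distal peaks were called lower. With the minimum of 1 FPM set on the other nuclei alone, these were 2 of 11 and 11 of 72, against 1.76% of 158542 peaks.

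Summed over the 8 genes, promoter peaks stood at 253 against 133 FPM, a ratio of 1.91 (1.76 to 2.06), and distal peaks at 698 against 286 FPM, a ratio of 2.44 (2.33 to 2.56). The promoter ratio was above 1 for 7 of the 8 genes. Tek stood out with 25.4 against 2.32 FPM, a ratio of 11.0 (8.26 to 14.3). The others lay between 1.43 for Lmo2 and 2.22 for Tal1, and Fli1 was below 1 at 7.21 against 12.2 FPM (0.591, 0.355 to 0.926) on 19 fragments. Distal ratios were 4.12 for Hapln1, 3.502 for Kdr, 3.15 for Tek, 2.73 for Fli1, 2.65 for Tal1, 2.43 for Rhoj, 1.42 for Etv2 and 1.02 for Lmo2. At Fli1 and Kdr the distal peaks thus had the larger ratio. At Tek the promoter did, though its distal peaks were higher too.

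The printed promoters meet these peaks. All 250 printed bases of Tek lie in the peak chr4:94738887-94739787, which had 21.2 against 1.75 FPM (12.1, 8.87 to 16.3) and a fragment in 20.4% of progenitor nuclei and 1.82% of the others. Of the Etv2 stretch, 105 bases lie in the peak chr7:30635998-30636861, with 40.6 against 7.76 FPM (5.23, 4.25 to 6.397) and a fragment in 34.4% against 7.34% of nuclei. A second Etv2 promoter peak, chr7:30634397-30635266, had 25.04 against 22.4 FPM (1.12, 0.861 to 1.42), so the difference lay upstream of the gene. The marked ETS match lies inside the first of these peaks, the one that was called higher. Of the Tal1 stretch, 149 bases lie in the peak chr4:115056277-115057089, at 43.2 against 19.5 FPM (2.22, 1.82 to 2.67), present in 34.0% of progenitor nuclei, and the marked GATA match lies outside it.

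Single distal peaks showed larger ratios. At Fli1 the peak chr9:32581814-32582668, 40645 bp from the start, had 79 fragments in the progenitor nuclei and 70 in all the others (52.6, 37.6 to 73.6), and was open in 24.0% against 0.564% of nuclei. At 0.570 FPM in the others, it passed the level filter only through the progenitor nuclei. The other called Fli1 peak, chr9:32505876-32506790, had a smaller ratio, at 11.0 against 2.08 FPM (5.30, 3.48 to 7.79). At Kdr 6 distal peaks were called higher, led by chr5:75961986-75962866, which lies 16032 bp from the start and had 59 against 68 fragments (40.4, 28.0 to 58.1). The other 5 Kdr peaks had ratios between 4.94 and 6.99. At Hapln1 the peak chr13:89492982-89493843 had a ratio of 14.1 (9.34 to 20.9) and passed the filter only through the progenitor nuclei, as did the leading Kdr peak, and at Rhoj chr12:75275474-75276566 one of 4.29.

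Tal1, Etv2 and Tek each had called distal peaks too. At Tal1 these were chr4:115075138-115076068, with 28.8 against 4.26 FPM (6.77, 5.25 to 8.62), and chr4:115071423-115072289 (5.59). The first of them is nearer to the start of Pdzk1ip1, 13105 bp away, than to those of Tal1. The most accessible distal peak of Tal1, chr4:115095515-115096392, was open in 54.0% of progenitor and 19.3% of other nuclei, and its ratio of 3.74 (3.23 to 4.30) fell short of a call. That peak too is nearer to Pdzk1ip1. At Etv2 the peak chr7:30638830-30639736 had a ratio of 4.93 (3.94 to 6.11), and at Tek chr4:94746144-94746984 one of 6.004 (4.23 to 8.33). Lmo2 had no called peak. The called lower peaks, 1 each near Tal1, Etv2 and Rhoj, held between 1 and 4 fragments in the progenitor nuclei.

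**Figure D3:**
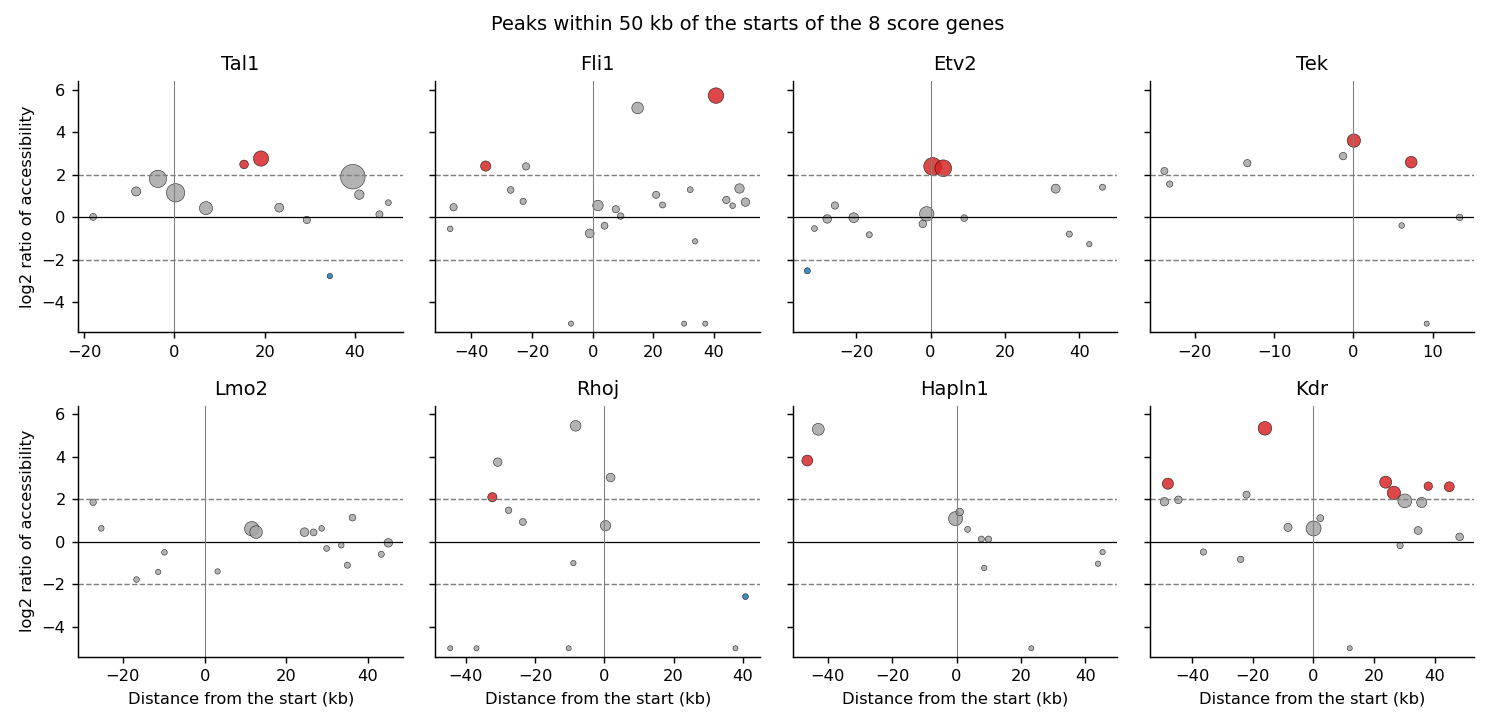
Log2 ratio of accessibility between progenitor and other nuclei for each peak against its distance from the gene's first start in kb, 1 panel per marker gene; red peaks were called higher, blue lower and grey neither, larger points have more FPM in progenitor nuclei, and ratios of 0 are drawn at the bottom. Red peaks stand at the start only for Etv2 and Tek, Kdr has 6 red peaks, all distal, and Lmo2 has none; grey peaks above the upper dashed line were under the level filter.

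Among called peaks with a fragment in at least 25 progenitor nuclei, the 12 with the highest ratios were scattered. They had ratios between 36.5 and 52.6 and between 0.505 and 0.831 FPM in the others, so each passed the level filter only through the progenitor nuclei, and their rank is a description. For 3 of the 12 (at Fli1, Kdr and Gypc) the nearest gene was also called higher in RNA. Fli1 and Kdr are genes of the score, so their RNA calls came with the choice of the nuclei. Of all tested peaks, 2.15% lay near a gene called higher. Gypc, the red cell membrane protein glycophorin C, had its peak at the promoter (50.3, 36.2 to 70.0) and RNA at 18.7 against 1.76 CPM. A peak 39228 bp from Ednrb, the endothelin receptor, had a ratio of 50.04 where the RNA was at 2.72 against 0.347 CPM. One 11356 bp from Vav1, an exchange factor of blood cells, had a ratio of 38.7 where the RNA was at 0.340 against 0.318 CPM. The remaining 7 were nearest to Wscd1, Immp2l, Zfp608, Chst2, Psapl1, Tnp1 and Atp2a3. The RNA of the nearest gene was not called higher for the other 9.

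Genes called higher in RNA had more accessible promoters more often than all tested genes. Of the 233 genes called higher in RNA that had a promoter peak, 82.0% had a promoter ratio above 1, against 56.6% of 14232 tested genes, and 48.5% had an interval wholly above 1, against 12.1%. Outside the score these shares were 81.8% and 47.1% of 225 genes. Over genes whose starts lie within 1000 bp of each other, the shares above 1 were 81.1% of 153 against 58.2% of 11260. The called open peaks lay less often at promoters than all tested peaks, 14.8% against 22.6%, and so did the peaks called lower (13.4%). They lay more often near a gene called higher, 6.07% against 2.15% of tested peaks and 1.11% of those called lower. Both are counts over peaks and genes of 1 library and not tests. The called genes and peaks include some that passed the level filter only through the progenitor nuclei. With the minimum set on the other nuclei alone, 230 genes and 2792 peaks were called higher, and the shares were not computed for these. The shares are therefore a description.

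The blood and endothelial genes outside the score had smaller accessibility ratios than the markers. Their promoters summed to a ratio of 1.35 (1.31 to 1.38), with 50 of 58 genes above 1, and 35 of 42 among those with starts within 1000 bp of each other (1.31, 1.26 to 1.36). Their distal peaks summed to 1.26 (1.23 to 1.28). Of 747 tested distal peaks 42 were called higher and 28 lower, where over all peaks 2.06% were called higher and 6.41% lower. Peaks that passed the level filter only through the progenitor nuclei were not taken out of these counts, which are a description. Ikzf1 had a distal ratio of 5.598 (4.47 to 6.94), Sox7 of 3.48, Aplnr of 2.995 and Cbfa2t3 of 2.49. The starts of Runx1 lie 130024 bp apart, and the peaks over that span had a ratio of 1.70, 4 of them called higher, while its distal peaks had 1.95. Gata2, whose RNA ratio was 15.02, had 1.09 over its 4443 bp of starts and 1.88 at distal peaks. At Vwf the promoter had a ratio of 10.51 (7.90 to 13.8), and at Nrp1 and Eng the promoter ratios were 2.89 and 2.80. Promoters of epiblast and visceral endoderm genes had summed ratios of 0.699 and 0.611, and among the blood and endothelial genes Sox17 had 5 distal peaks called lower.

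Summed over the marker genes, distal accessibility was lower at lower scores, within the limit and beyond it. Distal peaks stood at 794, 776 and 624 FPM in ranks 1 to 50, 51 to 125 and 126 to 250, then at 467, 374 and 277 in the bands outside. Promoter peaks went from 265 through 274 and 239 to 171, 159 and 131 FPM. Genes differed in this. The Fli1 promoter ran the other way, at 3.96, 8.26 and 7.83 FPM on 2, 6 and 11 fragments inside the limit and 13.4, 13.5 and 12.1 outside, and Lmo2 distal peaks were flat, at 23.8, 37.2 and 27.8 FPM inside and 26.5, 28.1 and 29.2 outside. The Tek promoter went from 29.7, 31.7 and 20.7 FPM inside the limit to 2.47, 2.01 and 2.33 outside. Kdr distal peaks, at 174, 169 and 155 FPM inside, were still at 148 and 130 in the next bands and at 40.0 in the rest, and the extraembryonic mesoderm nuclei had 135. Accessibility at Kdr thus extended to nuclei outside the limit, while the Tek promoter was there at the level of the rest.

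The nuclei also lay together when placed by accessibility alone. Each nucleus was set among its 15 nearest in 29 components of the peak matrix. For a progenitor nucleus a mean of 83.9% of these neighbours were progenitor nuclei (median 93.3%), where 2.15% of all eligible nuclei were. For the other nuclei the mean was 0.443%, for the extraembryonic mesoderm nuclei 2.91% and for the embryonic mesoderm nuclei 0.0267%. The mean was 94.1% in ranks 1 to 50, 93.9% in ranks 51 to 125, 73.9% in ranks 126 to 250 and 17.2% in the 250 nuclei just outside the limit. Ranks 126 to 250 were thus more mixed in accessibility than ranks 1 to 125.

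**Figure D4:**
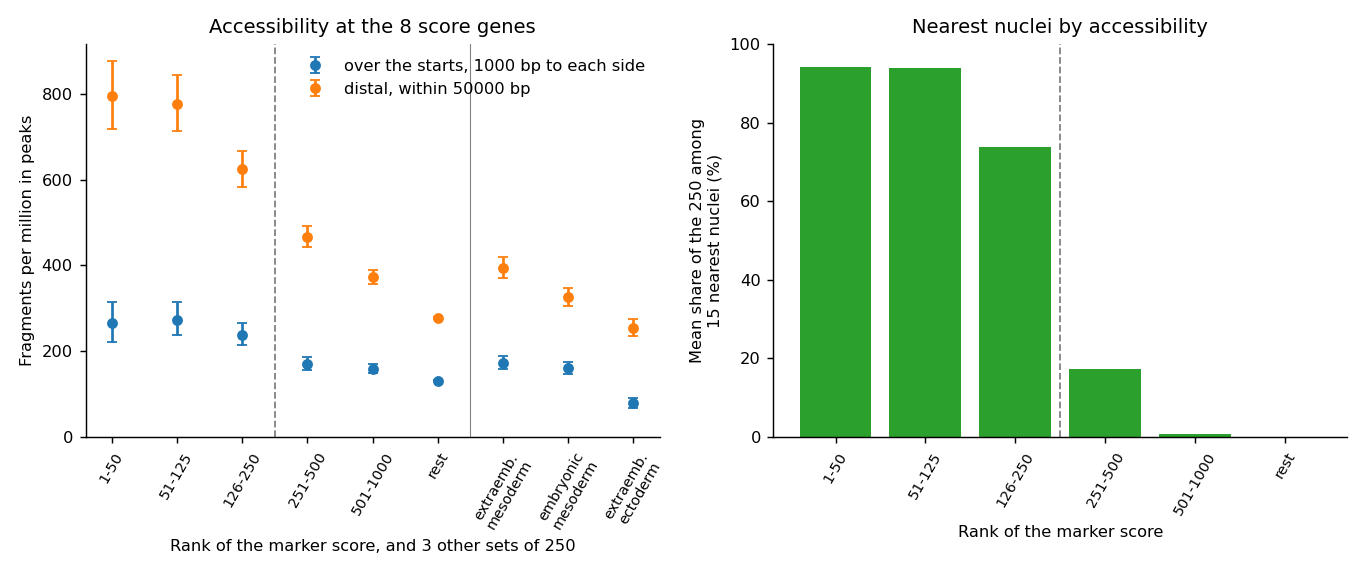
Left, FPM at the promoter and distal peaks of the 8 marker genes by rank of the score and in 3 other sets of 250 nuclei, with 95% counting intervals; right, mean percentage of progenitor nuclei among the 15 nearest nuclei by accessibility, by rank. Distal peaks go from 794 in ranks 1 to 50 to 277 in the rest, and the share of neighbours from 94.1% to 17.2% just outside the limit.

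Nuclei whose neighbours disagreed with the score had distinct RNA. Of the 250, 26 had no majority of progenitor neighbours, and 7 of these 26 (26.9%) were doublet calls. They had 853.8 CPM of Cubn against 81.6 in the other 224, 43.0 against 183 of Tek and 346 against 301 of Etv2. Conversely, 39 nuclei outside the limit had such a majority, 35 of them in the band up to rank 500 and 9 of them doublet calls. Their median score was 0.481, with Etv2 at 186 and Tek at 11.0 CPM. How far mixed droplets account for these nuclei was not tested.

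Within the 250 nuclei, accessibility was ordered by its own second component, computed from 50541 peaks open in at least 10 of them, and the order was divided into a first, a middle and a last group of 84, 83 and 83 nuclei. The order used no RNA, except that its direction was set so that the score fell along it (correlation with the score -0.458). Which end held more RNA of the score genes was thus partly set in advance, and the median score was 1.17, 1.05 and 0.785. The order also ran along depth: median UMIs were 9386, 11036 and 12605 and median peak counts 14561, 18287 and 24336. Doublet calls were 0, 3 and 9. Levels below are in CPM. With depth regressed out of the order, and without doublet calls, the last group had 0.105 and 0.1003 times the Runx1 level of the first, against 0.111 as reported, and 2.87 and 3.59 times the Etv2 level, against 2.93. The part of the score was not tested.

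Part of the blood and vessel genes stood highest in the first group. Of 14 blood factors with a UMI, 5 had an interval that placed the first group above the last and none the reverse. Over all 18527 genes with a UMI in the 250 nuclei, 4.92% were higher in the first group and 6.28% in the last by this rule, and of 14892 with at least 1 CPM over all eligible nuclei 6.02% and 7.77%. Of 22 endothelial surface genes 10 and 1. Endothelial factors were split, with 4 of 14 higher in the first group and 2 in the last. Runx1 stood at 752, 259.6 and 83.6 CPM over the 3 groups, 9.003-fold higher in the first than the last (7.24 to 11.3). Ikzf1 stood at 117, 33.3 and 5.33 CPM (21.9-fold, 9.70 to 61.1). Its level in the last group was 0.0457 times that of the first, and 0.0711 times with peaks seen in at least 25 of the nuclei. Among the markers Fli1 went from 707 to 402 and 183 CPM, Tek from 313 to 169.7 and 52.4 and Hapln1 from 309 to 158 and 70.2. For Fli1 the last group was at 0.259 times the first, and at 0.170 times with depth regressed out. Egfl7 went from 349 to 169 and 48.0 CPM and Nrip3 from 122 to 47.5 and 6.22. Rspo3 differed less, from 1176 to 897 and 523 CPM. In each of the genes named here the middle group lay between the other groups.

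Etv2 ran the opposite way, from 144 to 311 and 423 CPM, 2.93-fold higher in the last group than in the first (2.39 to 3.61). Of 9 embryonic mesoderm genes with a UMI, 4 were higher in the last group and 1 in the first, of 10 streak genes 4 and none, and of 9 extraembryonic mesoderm genes 6 and 1, where 6.28% and 4.92% of all genes were. The 6 were Hand1, Tbx20, Msx1, Msx2, Prdm6 and Pmp22. The same course was seen for Mixl1, at 9.63, 35.4 and 65.8 CPM (6.83-fold, 3.29 to 16.4), Eomes, at 49.4, 84.9 and 129.8 (2.63-fold), Cdh11, at 139.6, 158 and 320.0 (2.29-fold), and Pdgfra, at 9.63, 15.2 and 39.1 (4.06-fold). T did not share this course, at 158, 157 and 139.5 CPM. Kdr, at 597, 586 and 521 CPM, and Rhoj, at 208, 242 and 197, hardly varied. Tal1 was highest in the middle group, at 203, 247 and 143 CPM, and Gas7 likewise at 97.5, 261 and 46.2. The blood cofactors Ldb1, at 60.2, 56.6 and 60.4 CPM, and Zfpm1, at 57.8, 39.4 and 44.4, showed no order. The visceral endoderm gene Cubn was at 89.1, 364 and 83.6 CPM, so it did not follow the order.

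Epiblast genes ran the same way as Etv2 along the order. Of 10, 7 had an interval that placed the last group above the first and none the reverse, where 6.28% of all genes had one. The last group was also the deeper, lower-scoring group with 9 of the 12 doublet calls. Cdh1 stood at 22.9, 48.5 and 71.1 CPM (3.11-fold, 1.87 to 5.43), Epcam, an epithelial adhesion protein, at 71.01, 81.8 and 123.5, and Dnmt3b, a DNA methyltransferase, at 209, 284 and 382. Otx2, a homeobox factor, and the growth factor Fgf5 were 2.32-fold and 2.42-fold higher in the last group than in the first. Of 10 visceral endoderm genes only Ttr, the thyroxine carrier, had an interval that left out 1, with the first group higher. The part of epiblast RNA in the order was not tested.

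**Figure D5:**
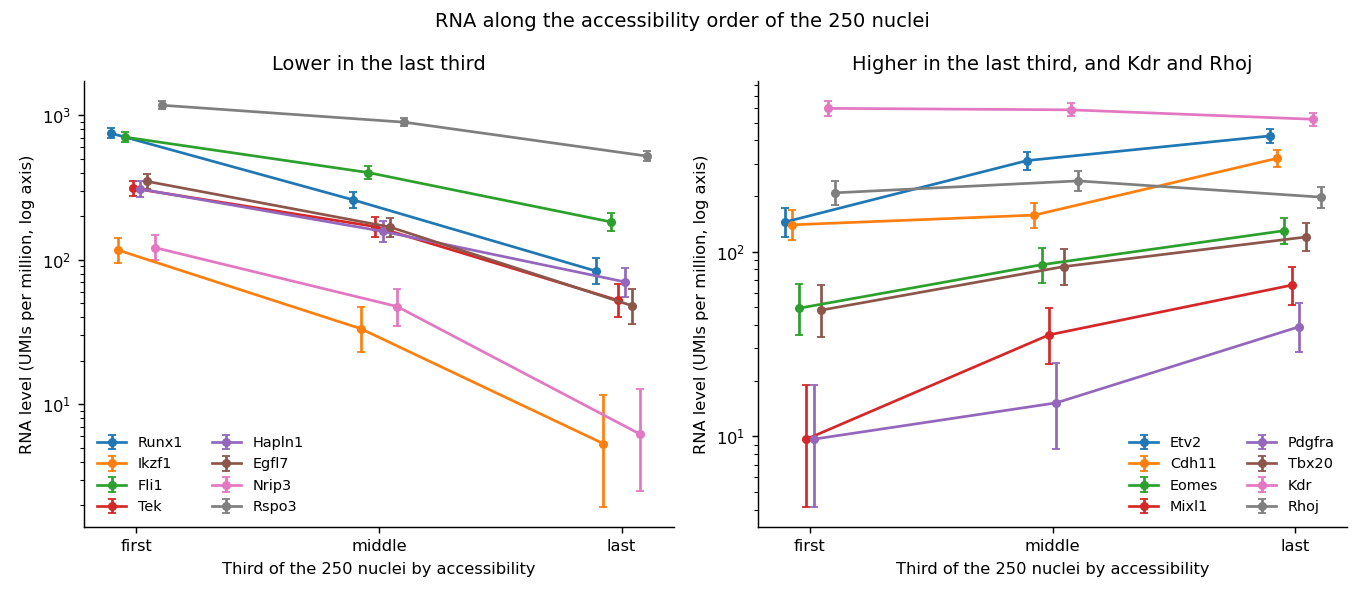
RNA level in CPM (log axis) in the first, middle and last group of the 250 nuclei ordered by accessibility, with 95% counting intervals; genes lower in the last group on the left, genes higher there and Kdr and Rhoj on the right. Runx1 goes from 752 to 83.6 while Etv2 goes from 144 to 423, and Kdr stays between 597 and 521.

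Motif letters were also counted in the promoters of genes called higher. In the RefSeq promoters, each 300 bases long (250 before and 50 after a start), the ETS motif was in 49.8% of 217 promoters of genes called higher and in 46.5% of all 32851. The GATA motif was in 13.8% against 18.6%, and the E-box CAGCTG in 16.6% against 16.3%. The composite AACAGGAA, which a pair of forkhead and ETS factors can bind, was in 12 of 217 promoters (5.53%) against 2.65%. Both strands were searched, and AACAGGAA shares the letters AGGAA with the ETS motif, so a stretch can hold both.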

How the data were processed

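The authors deposited 1 sparse matrix of raw counts for each barcode, UMIs in the rows of genes and cut counts in the rows of peaks. Cell Ranger ARC 2.0.0 and the build mm10 are named in the submitters' processing notes. It covered 32285 genes and 229480 peaks and summed to 182201512 UMIs and 273131304 peak counts. Even values made up 86.4% of the filled peak entries, so fragments were estimated as the count divided by 2 and rounded up.

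Counts were summed over the 250 nuclei and over the others, scaled to CPM or FPM, and ratios given with exact conditional binomial intervals at 95%. Genes and peaks of at least 1 CPM or FPM over all eligible barcodes were held against the 4-fold limit. Neighbours came from TF-IDF singular vectors (the first of 30 dropped) with scikit-learn 1.9.0. Scrublet (scanpy 1.11.5, rate 0.1) called doublets, which were kept. The ratio code was tested on simulated data. Of all barcodes, 1955 had too few UMIs, 506 too many and 2139 too few peak counts. Groups followed the sample titles. Members, lists and alternatives were chosen with earlier results of these data known. The text names the 8 markers, all called list genes with up to 4 further examples a list, and, outside the lists, the 15 highest ratios (1 of these genes is not reported here) and the 8 lowest. Promoters came from RefSeq by symbol, and 6 of the 8 markers matched. Distances use the starts in the files, and exon annotation was not used here.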

Additional observations from a re-analysis of the deposited data

How the results depend on the processing

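Alternatives changed the number of calls more than their direction, and no value reversed. Genes called higher, 246 as reported, numbered 120 with a minimum of 5 CPM, 628 with no minimum and 773 at a 2-fold limit. Genes called lower, 677 as reported, numbered 446 when the 400 highest scores were taken, 354 with a minimum of 5 CPM and 1671 at a 2-fold limit. Peaks called higher, 3262 as reported, numbered 10104 at a 2-fold limit and 585 with a minimum of 3 FPM. Peaks called lower, 10156 as reported, numbered 16354 at a 2-fold limit, 4627 with that minimum and 18829 on deposited counts in place of fragments. The marker promoter ratio of 1.91 became 1.67 with 400 nuclei, and the distal ratio of 2.44 became 2.59 with 150 nuclei, 2.19 with 400 and 2.22 for peaks within 100000 bp. The cause of these shifts was not tested. The median log2 ratio of blood and endothelial genes stayed between 1.49 and 2.04 and the mean share of progenitor neighbours between 70.0% and 93.7%.

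Of 656 values of 81 named genes under the alternatives, 637 were within 2-fold of the reported ratio. The widest moves were in genes of few UMIs: Foxc1 reached 0.531 with 400 nuclei (4.98 times the reported ratio), and Cemip was at 0 with 150 nuclei and without doublet calls. Of 50 named higher calls, T lost its call with 400 nuclei (3.07), with a score on thinned UMIs (3.72) and with nuclei weighted equally (3.88), and Notch1 with 400 nuclei (3.83). Of 31 named lower calls, 16 came within the limit with 400 nuclei, 12 with the thinned score, 7 with wider limits on depth, 4 with equal weights, 2 without doublet calls and 1 with 150 nuclei. Gm13270 reached 0.00498 with 150 nuclei, Lefty2 0.556 with 400 nuclei and 0.506 with the thinned score, and Cubn 0.0614 without doublet calls. Scoring on thinned UMIs kept 206 of the 250 nuclei. Of 3 orders by accessibility added after seeing the data, each kept the direction of all 8 genes followed, while Fli1 went from 0.259 to 0.170 with depth regressed out and Ikzf1 from 0.0457 to 0.0711 with peaks seen in at least 25 of the nuclei. No paired analysis was possible because the groups are 2 assays of 1 pool with no replicate numbers. No replicate could be left out, and counting depth limits genes under about 10 UMIs.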
